A study of Mus musculus with 9 samples.

Results

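The genes of 9 integrin chains and 1 chemokine receptor that help hold blood stem cells in the bone marrow were followed here: the alpha chains Itga4, Itga5, Itga6, Itga9, Itgal and Itgav, the beta chains Itgb1, Itgb2 and Itgb7, and Cxcr4. These 10 genes were chosen by symbol, out of 31053 genes listed, and all 10 were detected in at least 3 cells. The cells were bone marrow cells of C57BL/6 mice sorted as lineage-negative, Sca1-positive and cKit-positive (LSK cells, the fraction that holds the stem cells and the multipotent progenitors), frozen viably, thawed and profiled by droplet single-cell RNA sequencing of 3′ ends. Of the libraries, 3 came from young mice of 10 to 12 weeks given cyclodextrin, the solvent of the drug, 3 from aged mice over 80 weeks given the same solvent, and 3 from aged mice given CASIN, an inhibitor of the small GTPase Cdc42, at 25 mg/kg in 4 intraperitoneal injections 24 h apart, with marrow taken 24 h after treatment ended. The groups are called young, aged and CASIN. The labels give 2 sequencing batches: of the young libraries 1 and 2 were in batch 1 and 3 in batch 2, of the aged ones 1 was in batch 1 while 2 and 3 were in batch 2, and the CASIN libraries were split like the young. How many mice went into a library is not given in the sources used here, so p-values measure the spread between libraries.

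Integrins are receptors made of an alpha and a beta chain that anchor a cell to the matrix and to other cells. Itgb1 pairs with Itga4, Itga5, Itga6, Itga9 and Itgav. The pair of Itga4 and Itgb1 binds Vcam1 and fibronectin, Itga5 with Itgb1 binds fibronectin, Itga6 with Itgb1 binds laminins, Itgav binds vitronectin and related proteins, and Itga9 binds tenascin and osteopontin. Itgb7 pairs with Itga4 and binds Madcam1, and Itgal with Itgb2 forms LFA-1, the leukocyte receptor for Icam1. Cxcr4 is the receptor for the chemokine Cxcl12, which stromal cells of the marrow release and which keeps stem cells in their niche.

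The 9 libraries held 19237354 to 42780953 UMIs (unique molecular identifiers, each standing for 1 captured RNA molecule), and 1112 to 2417 cells per library passed the filters, 15856 in all. The libraries of the batches stood apart: the median share of mitochondrial UMIs over all barcodes was 2.73% to 4.61% in batch 1 and 13.02% to 15.5% in batch 2, and 59.1% to 66.8% of the barcodes of batch 2 exceeded the limit of 10%, against 10.96% to 40.6% in batch 1. Levels are given as CPM, the UMIs of a gene for each 1000000 UMIs summed over the cells of a library. Kit and Ly6a, the genes of the sort, were at 112 to 225 and 87.9 to 186 CPM in all libraries, and Itgam, which the lineage stain removes, was at 3.59 to 10.8. Libraries of the same sequencing batch shared up to 85 cell barcodes, and 87 kept cells carried a shared one. CPM values compare libraries and subsets for 1 gene, not genes with each other.

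Over all LSK cells the counts behind the levels ran from 655 UMIs for Itga9 to 30025 for Itgb1. Cxcr4 gave 23133 UMIs, Itga6 17307, Itga4 12862, Itgav 11511, Itga5 4588, Itgb7 4581, Itgal 2094 and Itgb2 1502. Statements on Itga9, Itgb2 and Itgal in single subsets therefore rest on few molecules. In the annotation of the same build (GRCm38), Cxcr4 (ENSMUSG00000045382) lies at chr1:128588199-128592293 on the minus strand, Itga6 (ENSMUSG00000027111) at chr2:71745616-71858416 on the plus strand, Itga5 (ENSMUSG00000000555) at chr15:103344286-103366763 on the minus strand and Itgb1 (ENSMUSG00000025809) at chr8:128685654-128733200 on the plus strand. Itga4 (ENSMUSG00000027009) at chr2:79255426-79333123 and Itgav (ENSMUSG00000027087) at chr2:83724397-83806916 share the chromosome and strand of Itga6. On the plus strand lie Itga9 (ENSMUSG00000039115) at chr9:118606690-118901003, Itgal (ENSMUSG00000030830) at chr7:127296260-127335138 and Itgb2 (ENSMUSG00000000290) at chr10:77530252-77565708, and on the minus strand lies Itgb7 (ENSMUSG00000001281) at chr15:102215995-102231944.

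The 150 bases before the RefSeq start (GRCm38.p6) are shown for Cxcr4, which was lower with age, for Itga5, which was higher in CASIN than in young cells, and for Itgb1, the shared beta chain, which gave no call in any comparison of the groups. They were read on both strands for 7 motifs, and the share of 32851 promoter windows of the same length that hold each is given. The GC box, with the letters GGGCGG, was in 28.6% of windows. The box named for its letters CCAAT was in 24.5% of them. The TATA box was searched as TATAAA and found in 7.57%. The AP-1 motif was searched as TGANTCA and found in 4.24%. The cAMP response element, spelled TGACGTCA, was in 1.36% of windows. The E-box, spelled CACGTG, was in 4.3%, and each match also holds the hypoxia response core, spelled ACGTG, which was in 11.2%. Capitals mark every match. The first is at chr1:128592300-128592449 on the minus strand, the second at chr15:103366792-103366941 on the minus strand and the third at chr8:128685504-128685653 on the plus strand.
Cxcr4: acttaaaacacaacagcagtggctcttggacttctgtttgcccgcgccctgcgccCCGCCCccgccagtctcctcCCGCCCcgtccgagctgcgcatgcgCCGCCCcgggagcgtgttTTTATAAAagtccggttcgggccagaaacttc
Itga5: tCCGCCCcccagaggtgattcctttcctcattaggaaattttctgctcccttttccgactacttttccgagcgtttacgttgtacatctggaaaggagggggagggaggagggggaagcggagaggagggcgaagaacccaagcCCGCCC
Itgb1: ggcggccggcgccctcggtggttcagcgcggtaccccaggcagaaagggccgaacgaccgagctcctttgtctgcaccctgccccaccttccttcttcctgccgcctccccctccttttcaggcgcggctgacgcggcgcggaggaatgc
The Cxcr4 window held 3 GC boxes and a TATA box read on both strands in overlap (2 matches), the Itga5 window held 2 GC boxes, and none of these letters was in the Itgb1 window. The GC content was 63.3%, 56.7% and 70.0%. Of the 10 genes 7 had a promoter in the table, and Itga6, Itgal and Itgb2 did not.

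Where in the LSK compartment the genes are used was compared first. Cells were grouped into 15 subsets without the 10 genes and without other adhesion genes (54 of these would have been among the genes used, 9 of the 10 included), and a subset has a name ending in "-like" where fixed markers gave it one and a cluster number where they did not. Some of the genes had higher levels in stem cell subsets and others in lymphoid or myeloid ones, while Itga4, Itga9 and Cxcr4 were placed in neither group. Itga6 and Itga5 were high in the HSC-like and MPP2-like subsets (stem cells, and progenitors with megakaryocyte genes), Itgav in the HSC-like and Itgb1 in the HSC-1-like and MPP2-like subsets. All of these 4 were lowest in lymphoid-like and granulocyte-like cells, whereas Itgal, Itgb7 and Itgb2 were highest in monocyte-like cells. Subsets were named from their markers and not from these genes, and the levels are given as a description.

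Itga6, the laminin receptor chain, averaged 145 CPM (SD 72.0, n = 9 libraries) in HSC-1-like cells, a subset of 3032 cells, 123 (SD 63.6) in MPP2-like, 109 (SD 47.8) in HSC-2-like, 102 (SD 48.8) in HSC-3-like, 45.9 (SD 29.2) in LMPP-like (lymphoid-primed) and 19.5 (SD 11.1) in lymphoid-like cells. When all 15 subsets were ranked, of which some are not listed here, no neighbours differed by more than their SD, with both batches in it. Within a library, HSC-1-like exceeded LMPP-like cells in 9 of 9 libraries, by a median log2 ratio of 1.79 (range 1.05 to 2.66), and lymphoid-like cells in 9 of 9, by 2.73 (range 2.03 to 4.00), but MPP2-like cells by 0.23 in 8 of 9 and HSC-2-like cells by 0.41 in 7 of 9. Itga5, the fibronectin receptor chain, was higher in HSC-1-like than in LMPP-like cells in 9 of 9 libraries as well, by a median log2 ratio of 1.23 (range 0.77 to 1.91). Itgb1, the shared partner chain, followed with a shallower slope, by a median of 0.57 over LMPP-like cells (9 of 9 libraries, range 0.16 to 0.95), and was lower in HSC-1-like than in MPP2-like cells in 8 of 9 libraries. Itgav was higher in HSC-1-like than in LMPP-like cells in 7 of 9 libraries, by a median log2 ratio of 0.74.

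Itgal, the alpha chain of LFA-1, had the reverse pattern. Its level was 1.23 CPM (SD 1.14) in HSC-1-like, 19.9 (SD 5.01) in LMPP-like, 29.1 (SD 5.47) in lymphoid-like and 46.9 (SD 27.2) in monocyte-like cells. It was lower in HSC-1-like than in LMPP-like cells in 9 of 9 libraries, with a median log2 ratio of -4.48 (range -5.04 to -2.43). Itgb7, the partner of Itga4 in the Madcam1 receptor, was at 327 CPM (SD 141) in monocyte-like cells, a subset of 91 cells, against 34.0 (SD 3.22) in LMPP-like and 10.8 (SD 3.18) in HSC-1-like cells, and the first of these steps was present in 9 of 9 libraries. Itgb2, the beta chain of LFA-1, stood at 71.4 CPM (SD 28.6) in monocyte-like, 19.9 (SD 13.9) in granulocyte-like and 5.63 (SD 2.27) in HSC-1-like cells. It was at 12.8 (SD 6.21) in MPP2-like and at 8.28 (SD 2.33) in LMPP-like cells.

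Itga4 was the most even of the alpha chains with more than 20 CPM. Its mean ran from 47.4 CPM in S-phase-like to 145.5 in monocyte-like cells, and no neighbours in its order differed by more than their SD. It was lower in HSC-1-like than in HSC-2-like and in lymphoid-like cells in 9 of 9 libraries, by median log2 ratios of -0.51 and -0.63. Cxcr4 had no fixed order among the subsets: its mean level was 163 CPM (SD 202.5) in HSC-3-like, 137 (SD 176) in LMPP-like, 122 (SD 174) in HSC-1-like and 68.1 (SD 70.0) in lymphoid-like cells, and HSC-1-like exceeded LMPP-like cells in 6 of 9 libraries. These means pool the sequencing batches, which differed widely for Cxcr4, as given below. The medians over the 9 libraries had another order, at 18.9, 11.4, 13.6 and 27.5 CPM in the same subsets. Cluster 8, which had the highest mean of Cxcr4 (263), Itga6 (212), Itgav (132), Itga5 (48.4), Itga9 (7.90) and Itgb1 (224), held cells whose median UMI count was 0.582 of that of their own library, and the part of this depth in these levels was not tested. The median of Cxcr4 over the libraries was 27.2 CPM in cluster 8 and 32.5 in cluster 3.

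**Figure D1:**
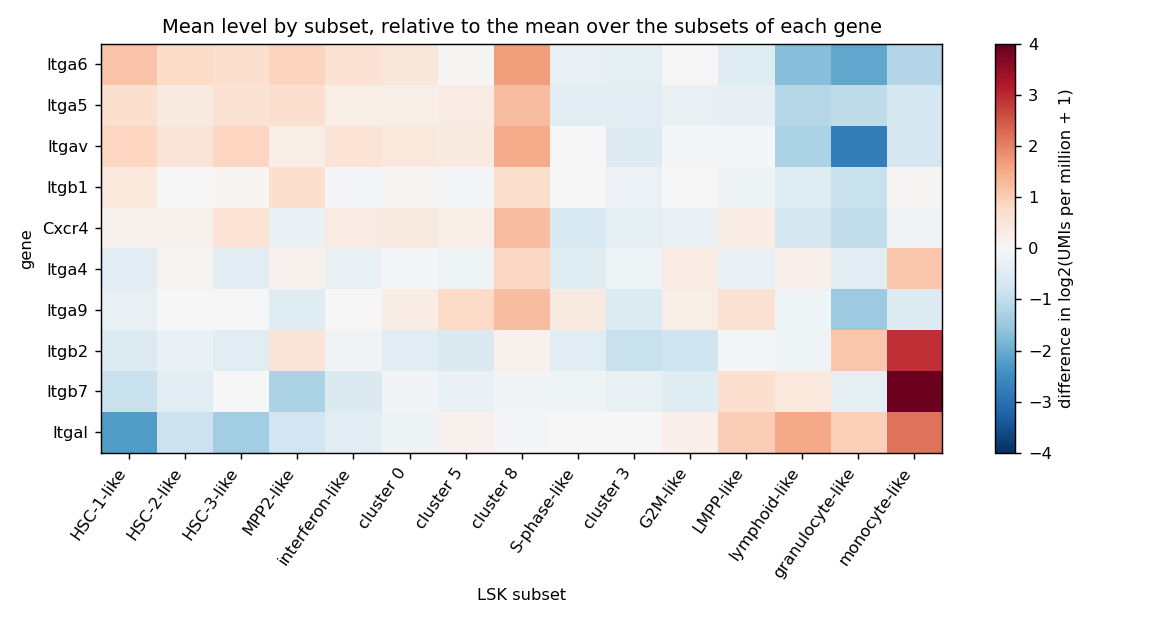
Mean level of the 10 genes (rows) in the 15 LSK subsets (columns), as the difference of log2(CPM + 1) from the mean over the subsets of each gene, with the mean CPM taken over 9 libraries. Red marks a level above the mean of the gene and blue one below it: Itga6 is red in the HSC-like subsets on the left, Itgal is blue there, and Itgb7 and Itgb2 are red in monocyte-like cells.

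The genes whose mean level followed each gene most closely over the 15 subsets were found among 5738 genes of at least 20 CPM, as a description over subsets that share libraries. For Itga6 they included Slc18a2 (Pearson r = 0.98) and Mmrn1 (0.98), for Itga5 they were Mafg (0.99), Sbno2 (0.98) and Stat5a (0.97), for Itgav Dst (0.98), Timp2 (0.98) and Git1 (0.98), and for Itgb1 R3hdm4 (0.95), Ankra2 (0.94) and Gcnt1 (0.93). For Cxcr4 they were Rab8b (0.96), Sft2d2 (0.94) and Tbc1d23 (0.94), and for Itga4 Cd164 (0.94), a sialomucin of blood progenitors, Abi1 (0.87) and Coro1c (0.87). For Itgb7 they were Selplg (0.94), the selectin ligand, Cap1 (0.94) and Gm2a (0.93). The genes below 20 CPM themselves were likest to Lat2 (0.96), Cd52 (0.94) and Rgs10 (0.94) for Itgal, to Nadk (0.95), Grn (0.93) and Syngr2 (0.93) for Itgb2 and to Snx10 (0.93), Gramd1a (0.93) and Chd3 (0.91) for Itga9.

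The sequencing batch had to be read before the conditions, since several of the genes differed far more between batches than between groups. Over all LSK cells Cxcr4 was at 12.4 and 10.99 CPM in young libraries 1 and 2 and at 432.5 in young library 3, at 5.44 in aged library 1 and at 127 and 259 in aged libraries 2 and 3, and at 11.45 and 16.7 in CASIN libraries 1 and 2 and at 211 in CASIN library 3. Every library of batch 2 lay above every library of batch 1. The difference between batches, fitted beside the groups with edgeR, was 4.68 on the log2 scale (SE 0.30, adjusted p = 1.088e-06). A larger difference in the same direction, higher in batch 2, was found for 86 of 13642 genes. It was 3.85 for Itgav (SE 0.14), 2.82 for Itga5 (SE 0.16), 1.78 for Itga9 (SE 0.30), 1.19 for Itga6 (SE 0.23) and 0.51 for Itgb1 (SE 0.08). For Itga4 it was -0.45 (SE 0.12), and for Itgal (0.37), Itgb7 (0.14) and Itgb2 (-0.03) it did not pass the threshold. Of all genes, 71.8% differed between the batches at an adjusted p below 0.05, as did 7 of the 10.

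In cells with at most 5% mitochondrial UMIs the difference was 4.47 for Cxcr4, 3.37 for Itgav and 2.45 for Itga5, but 0.68 for Itga6 and 0.20 for Itgb1. The batches also differed in the summed level of a list of 20 genes that respond to handling (Fos, Jun, Egr1 and others), which was 8590 to 12650 CPM in batch 1 and 3544 to 8430 in batch 2. The labels name only the sequencing, and what else the libraries of a batch had in common is not given. The parts of the difference cannot be told apart. All fits below hold the batch as a term, and values within each batch are given beside them.

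**Figure D2:**
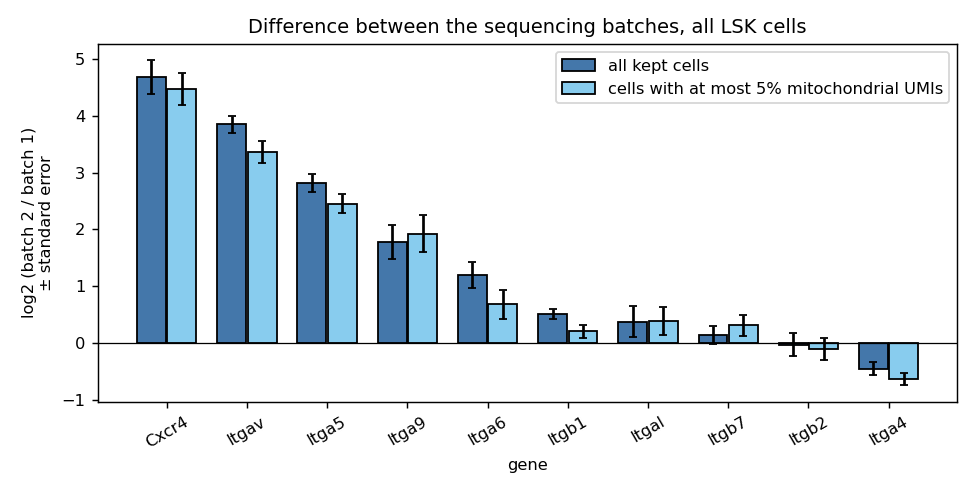
Difference of batch 2 over batch 1 for each gene (log2, bars, with a standard error derived from the edgeR test) over all LSK cells, in all kept cells and in cells with at most 5% mitochondrial UMIs. Cxcr4, Itgav and Itga5 reach 4.68, 3.85 and 2.82, whereas Itgal (0.37), Itgb7 (0.14), Itgb2 (-0.03) and Itga4 (-0.45) lie near or below 0.

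**Figure D3:**
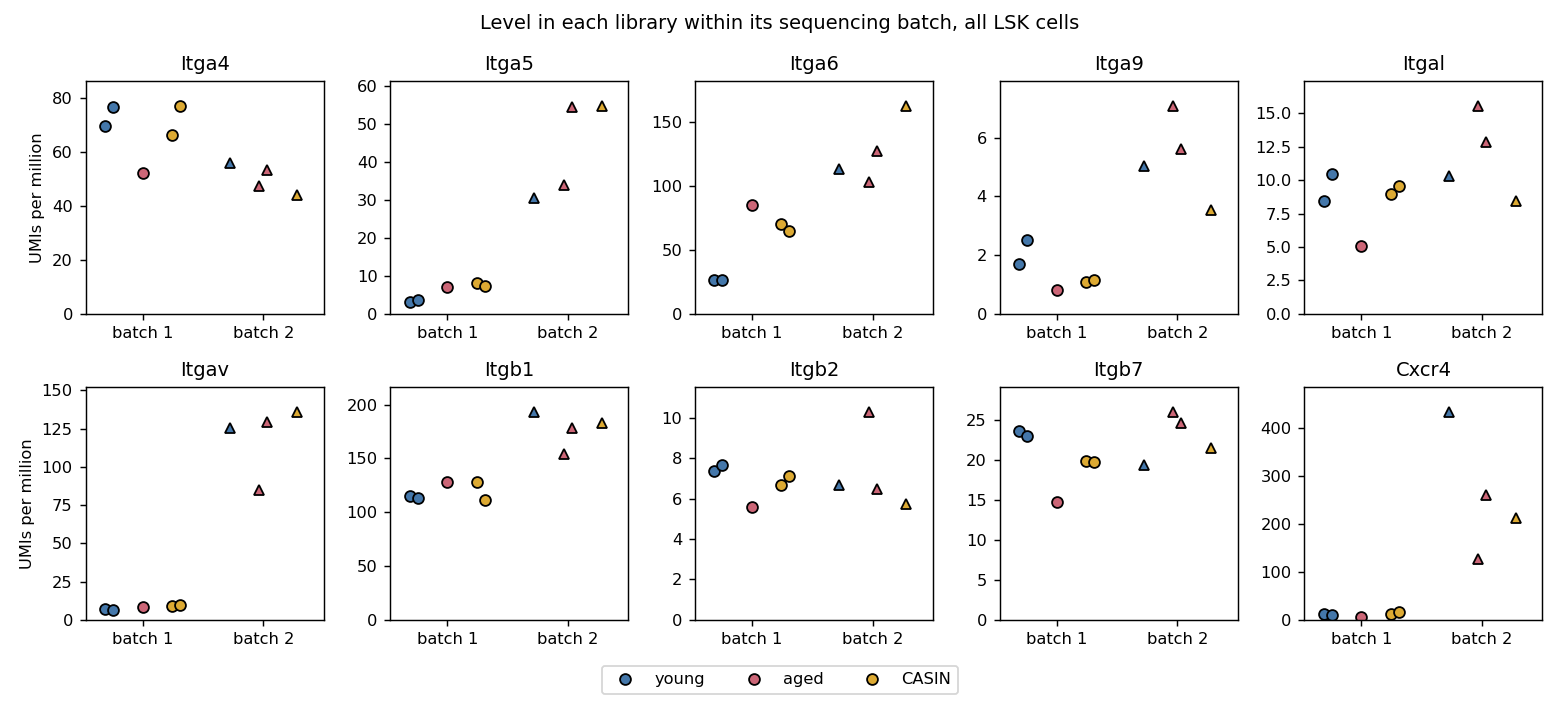
Level (CPM) of each gene in each of the 9 libraries over all LSK cells, on linear axes from 0, with batch 1 as circles on the left and batch 2 as triangles on the right and colours for young, aged and CASIN. Within each batch the aged libraries lie below the young ones for Cxcr4 and above them for Itga5, while Itga6 separates young from aged libraries in batch 1 only. The share of all genes with such an order was not counted.

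Whether the marrow adhesion genes change with age was asked by comparing aged with young libraries. Over all LSK cells no gene of the 10 passed the edgeR threshold, where 4.1% of 13642 genes did. An unadjusted p below 0.05 was reached by 3 of the 10 (Itga5, Itga6 and Cxcr4) and by 3006 of all 13642 genes. DESeq2 called Itga5 and Itga6, among 1135 genes that it called in all. The median log2 fold change of the 10 was -0.01, beside 0.01 for all genes. Fewer cells of a subset and less RNA per cell cannot be told apart in such sums. In HSC-1-like cells 2 of the 9 genes tested passed, where 7.27% of 11228 genes did: Itga6 was higher and Cxcr4 was lower in aged cells. Itgal did not pass the filter on low counts there.

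In HSC-1-like cells Itga6 was at 51.1, 46.5 and 173 CPM in the young libraries 1 to 3, at 112, 202.5 and 219.6 in the aged libraries and at 124, 126 and 252 in the CASIN libraries. Young libraries 1 and 2 were the lowest, and young library 3, from batch 2, lay among the aged ones. Aged exceeded young cells by 0.79 on the log2 scale (SE 0.15, adjusted p = 0.004019 in edgeR), and within batches the log2 ratio was 1.20 in batch 1 and 0.29 in batch 2. Without aged replicate 1, the only aged library of batch 1, it was 0.58 and not called (adjusted p = 0.09338). In HSC-2-like cells, where 5.96% of 9913 genes passed, Itga6 was higher in aged cells by 1.25 (SE 0.24, adjusted p = 0.002526), with levels of 38.9, 34.4 and 116 CPM in young and of 124, 132.5 and 115 in aged libraries. The UMIs behind these levels were 93, 71 and 48 in young and 314, 64 and 47 in aged libraries. The log2 ratio there was 1.76 in batch 1 and 0.10 in batch 2, so the difference lay mainly in batch 1, which holds 1 aged library. Genes of the handling list led this subset and it held few cells in batch 2, as given below for Cxcr4.

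In the other subsets Itga6 gave no call with age, though in some its change was as large as in HSC-1-like cells. The log2 fold change was 0.83 in HSC-3-like, 0.76 in MPP2-like, 0.79 in cluster 8, 0.68 in cluster 0 and 0.64 in cluster 5 cells. It was 0.29 in S-phase-like, 0.12 in cluster 3, 0.19 (SE 0.21) in LMPP-like and 0.10 in lymphoid-like cells. The value was above 0 in 11 of 11 subsets fitted. The difference between the changes in HSC-1-like and LMPP-like cells, tested with limma on the difference of log2 CPM within each library, was 0.58 (SE 0.17, adjusted p = 0.07486), where 2.61% of 10401 genes passed. In all LSK cells together Itga6 was 0.86 higher in aged cells (SE 0.28, adjusted p = 0.1104), with a change that differed between the batches (batch 2 minus batch 1 -1.65, SE 0.19, adjusted p = 0.00856, a test that 3.09% of genes passed), and 1.42 higher and called without young replicate 3 (adjusted p = 0.007513 in edgeR). The share of HSC-1-like cells was 8.79%, 9.40% and 17.2% in young libraries 1 to 3, against 26.8%, 20.4% and 17.3% in aged libraries 1 to 3. With the mix of subsets held at its mean over the libraries, the log2 ratio of aged over young, averaged over the batches, went from 0.86 to 0.67 for Itga6, from 0.81 to 0.67 for Itga5 and from -1.13 to -1.11 for Cxcr4.

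Cxcr4 was lower in aged than in young libraries within each batch. In HSC-1-like cells it was at 11.8, 8.38 and 520.0 CPM in the young libraries 1 to 3, from 28, 20 and 1241 UMIs, at 5.58, 107 and 264.7 in the aged libraries, from 25, 368 and 745 UMIs, and at 11.7, 13.6 and 155 in the CASIN libraries, from 43, 50 and 1062 UMIs. The groups overlap when the batches are pooled, and in each batch every aged library lay below every young one. As batch 1 has only 1 aged and batch 2 only 1 young library, few comparisons stand behind this order. The share of all genes with such an order was not counted. The fitted log2 change with age was -1.16 (SE 0.33, adjusted p = 0.04167 in edgeR), with a log2 ratio of -0.86 in batch 1 and -1.48 in batch 2. The call rests on few libraries: it was lost with DESeq2 (-1.01, adjusted p = 0.4561), and without young replicate 3, the only young library of batch 2, the value was -0.02 (adjusted p = 0.99). It was also lost without young replicate 1, aged replicate 1, aged replicate 2 or CASIN replicate 1, with values of -1.24, -1.10, -0.79 and -1.18.

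The log2 fold change of Cxcr4 was below 0 in the 11 of 15 subsets that were fitted, from -1.34 to -0.70, with an unadjusted p below 0.05 in all 11, and 4 passed after adjustment: HSC-1-like, HSC-2-like (-1.34, SE 0.32, adjusted p = 0.01278), S-phase-like (-1.25, where 0.221% of genes passed) and cluster 8 (-1.09, where 1.47% passed). Of all genes, 2332 of 11228 had an unadjusted p below 0.05 in HSC-1-like and 545 of 6950 in lymphoid-like cells. In the subsets too small to be fitted the values within batches were not all below 0: the log2 ratio was 0.81 in batch 1 in granulocyte-like cells, from 1 to 3 UMIs a library, and 0.04 in batch 2 in monocyte-like cells. The subsets share libraries and are not independent of each other. In HSC-2-like cells the young libraries were at 13.4, 6.79 and 535 CPM, from 32, 14 and 222 UMIs, and the aged ones at 3.96, 112 and 241, from 10, 54 and 98 UMIs, with log2 ratios of -1.35 in batch 1 and -1.60 in batch 2. Fosb, Fos, Dusp1, Jun, Klf2, Egr1 and Jund of the handling list were among the 10 genes that led this subset, which held 130 to 236 cells in each batch 1 library and 33 to 53 in each of batch 2, and the part of these genes in its values was not tested. In S-phase-like cells the values were 18.1, 15.4 and 248.5 CPM for young and 6.41, 81.5 and 113 for aged libraries. Summed over LSK cells the log2 fold change was -0.97 (SE 0.33, adjusted p = 0.1304), with log2 ratios of -1.11 in batch 1 and -1.16 in batch 2.

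**Figure D4:**
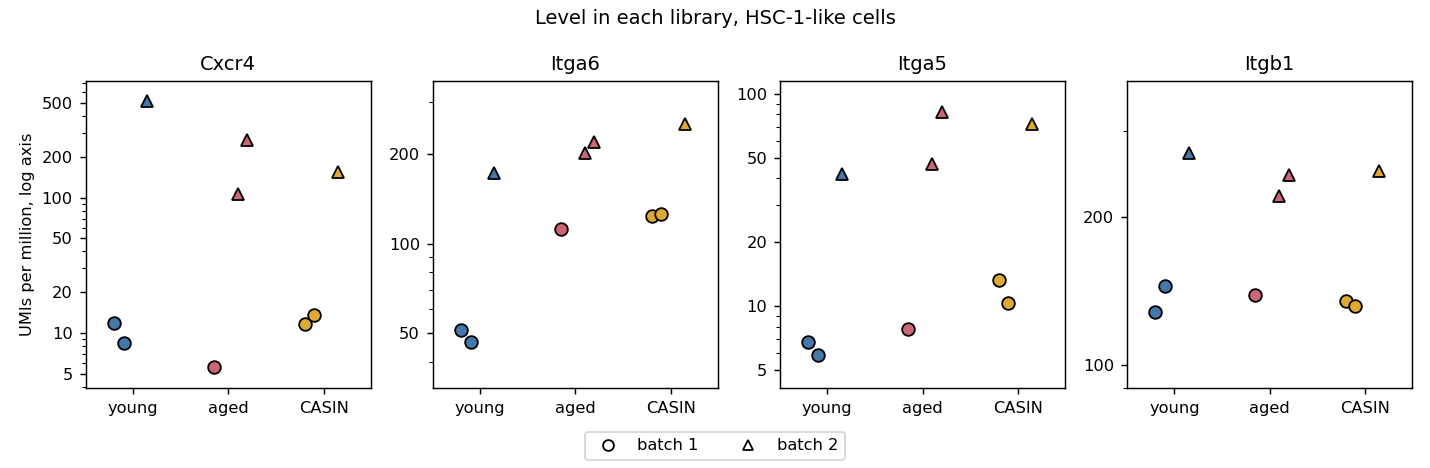
Level (CPM, log axis) of Cxcr4, Itga6, Itga5 and Itgb1 in HSC-1-like cells in each of the 9 libraries, by group, with circles for batch 1 and triangles for batch 2. Within each batch the aged libraries are below the young ones for Cxcr4 (5.58 against 11.8 and 8.38, and 107 and 264.7 against 520.0), above them for Itga6 and Itga5, and close to them for Itgb1. The share of all genes with such an order was not counted.

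The log2 fold change of Itga5, the fibronectin receptor chain, was above 0 in 10 of the 10 subsets in which it was tested, from 0.23 to 1.09, with an unadjusted p below 0.05 in 8, and it passed the adjusted threshold in none. The counts of all genes at that unadjusted p, given above for Cxcr4, stand beside this. Over all LSK cells it was at 3.16, 3.59 and 30.5 CPM in young and at 7.13, 34.05 and 54.6 in aged libraries, and in each batch every aged library exceeded every young one. Here too the share of all genes with such an order was not counted. The log2 fold change was 0.78 (SE 0.19, adjusted p = 0.05442 in edgeR), with log2 ratios of 1.08 in batch 1 and 0.54 in batch 2, and it was called by DESeq2 (adjusted p = 0.007856) and without aged replicate 2 (0.98, adjusted p = 0.01347).

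The other chains gave no call with age. Itgb1 in HSC-1-like cells was at 128, 145 and 270.3 CPM in young, 139, 221 and 244 in aged and 135, 132 and 248.5 in CASIN libraries, and its log2 change with age was -0.04 (SE 0.11). Its changes ran from -0.28 to 0.23 over the 11 subsets. Itga4 was lower in aged HSC-1-like cells by 0.43 on the log2 scale (SE 0.14, adjusted p = 0.08205 in edgeR, where 7.27% of genes passed), at 60.35, 71.25 and 51.1 CPM in young and 41.9, 36.1 and 44.1 in aged libraries. These groups do not overlap, and the share of all genes whose groups do not overlap was not counted. Itgav was at -0.12 (SE 0.15), Itgb7 at -0.04 (SE 0.33), Itgb2 at -0.12 (SE 0.34) and Itga9 at -0.03 (SE 0.55). The chains of LFA-1 overlapped between the groups over all LSK cells: Itgal was at 8.46, 10.45 and 10.3 CPM in young and 5.06, 15.6 and 12.9 in aged libraries, and Itgb2 at 7.38, 7.65 and 6.66 in young and 5.61, 10.3 and 6.47 in aged libraries. Over the 11 subsets, 6 of 88 pairs of gene and subset passed in this comparison (32 with an unadjusted p below 0.05), the 4 of Cxcr4 and the 2 of Itga6, out of 110 pairs of which 22 did not pass the filter on low counts. Of all genes, an unadjusted p below 0.05 was reached by 2332 of 11228 in HSC-1-like, 1775 of 9913 in HSC-2-like, 1045 of 10852 in LMPP-like and 545 of 6950 in lymphoid-like cells. In the subsets with no call among the 10 genes, the share of all genes that passed was 1.48% in HSC-3-like, 1.53% in cluster 0, 1.14% in MPP2-like, 0.498% in LMPP-like, 0% in lymphoid-like, 0.125% in cluster 5 and 0.288% in cluster 3.

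CASIN was compared with its control, the aged libraries, which also serve as the aged side of the comparison above. No gene of the 10 passed in all LSK cells or in any subset, where 0 of 13642 genes passed over all LSK cells (0%) and 0 of 11228 (0%) in HSC-1-like cells with edgeR, and 0 with DESeq2 in both. At an unadjusted p below 0.05 there were 439 and 345 genes, none of the 10 in the former and Itgb2 in the latter. Of 88 pairs of gene and subset 0 passed and 6 had an unadjusted p below 0.05, and in the subsets 0% of all genes passed but for S-phase-like cells with 0.0123%.

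Cxcr4 stood nearest to a change over all LSK cells, 0.75 higher in CASIN on the log2 scale (SE 0.36, adjusted p = 0.9865 in edgeR), and above 0 in 10 of 11 subsets. The batches gave different sizes, with a log2 ratio of 1.37 in batch 1, where 1 aged library at 5.44 CPM was set against 11.45 and 16.7, and 0.13 in batch 2, where CASIN lay between the aged libraries. In HSC-1-like cells the ratio was 1.18 in batch 1 and -0.26 in batch 2. Itga6 was 0.29 higher in CASIN than in aged HSC-1-like cells (SE 0.15), Itga5 0.31 higher (SE 0.19), Itgb1 0.04 higher (SE 0.10), Itga4 0.07 higher (SE 0.14) and Itgav 0.09 higher (SE 0.15). Itgb2 was lower by 0.88 (SE 0.34, adjusted p = 0.9998 in edgeR, where 0% of genes passed), at 4.46, 8.74 and 6.75 CPM in aged and 2.71, 4.34 and 3.07 in CASIN libraries, from 10 to 30 UMIs a library. These groups do not overlap either, and here too the share of all genes of which this holds was not counted.

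CASIN libraries were also set against young ones, so that this contrast shares its CASIN libraries with the one before and its young libraries with the first. Over all LSK cells 1 of the 10 genes passed, where 4.27% of 13642 genes did: Itga5 was higher by 1.02 (SE 0.19, adjusted p = 0.0219 in edgeR), at 8.03, 7.19 and 54.8 CPM in CASIN against 3.16, 3.59 and 30.5 in young libraries, and in each batch every CASIN library exceeded every young one. How many of all genes have such an order was not counted. The log2 ratio was 1.17 in batch 1 and 0.85 in batch 2. The call was lost in cells with at most 5% mitochondrial UMIs (0.91, adjusted p = 0.07586) and without young replicate 1 (0.93), young replicate 2 (1.03), CASIN replicate 1 (0.98) or CASIN replicate 3 (1.05).

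In HSC-1-like cells 2 of 9 genes passed, where 11.3% of 11228 genes did. Itga6 was higher by 1.08 (SE 0.15, adjusted p = 0.0001994 in edgeR), with log2 ratios of 1.36 in batch 1 and 0.55 in batch 2, and Itga5 by 0.92 (SE 0.23, adjusted p = 0.01546), with 0.90 and 0.78. Itga6 kept its call in every fit but the one with no batch term, which calls none. Itga5 lost it without young replicate 3 (0.85) or CASIN replicate 3 (1.04) and in cells thinned to 4000 UMIs (0.67). In HSC-2-like cells (7.58% of genes passed) Itga6 was higher by 1.44 and Itga5 by 1.11, and in MPP2-like cells (0.96% passed) Itga6 by 1.07. The 5 pairs called were these and the 2 in HSC-1-like cells, and elsewhere 1.02% of genes passed in HSC-3-like, 0.325% in cluster 0, 0.166% in LMPP-like, 0.0144% in lymphoid-like, 0.125% in cluster 5, 0.11% in S-phase-like, 0.228% in cluster 3 and 1.61% in cluster 8 cells. The change of Itga6 was larger in HSC-1-like than in LMPP-like cells by 0.94 (SE 0.16, adjusted p = 0.001411 in limma), where 3.72% of 10401 genes passed. In LMPP-like cells it was at 15.4, 20.8 and 83.25 CPM in young and at 27.9, 19.9 and 72.9 in CASIN libraries. Cxcr4 was lower than in young cells by 0.89 in HSC-1-like cells (SE 0.38, adjusted p = 0.1514), with a log2 ratio of 0.32 in batch 1 and -1.75 in batch 2. Itga4 was lower by 0.36 (SE 0.13, adjusted p = 0.0958), and Itgb1 by 0.01 (SE 0.10).

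**Figure D5:**
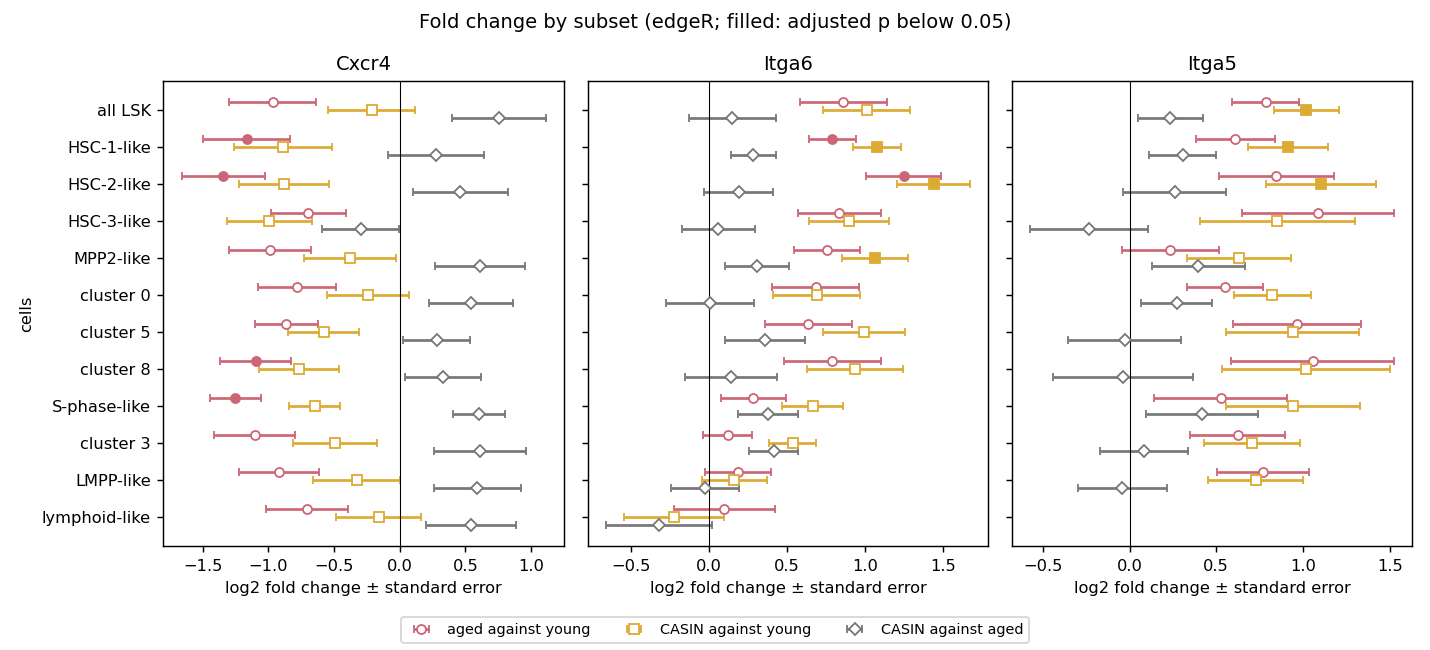
Log2 fold change (with a standard error derived from the edgeR test) of Cxcr4, Itga6 and Itga5 in all LSK cells and in the 11 subsets fitted, for aged against young, CASIN against young and CASIN against aged. Filled symbols have an adjusted p below 0.05. Cxcr4 is left of 0 with age in the 11 subsets fitted, with a filled symbol in 4 of them. For aged and for CASIN against young, Itga6 is right of 0 in the HSC-like, MPP2-like, cluster 0, cluster 5 and cluster 8 rows and nearer to 0 in LMPP-like and lymphoid-like cells.

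Other genes of the adhesion machinery were compared from lists, to place the 10 among their partners. The counts stand beside the 7.27% of all genes that passed with age in HSC-1-like cells and the 11.3% for CASIN against young, and beside 4.1% and 4.27% over all LSK cells. Nothing particular to a list was tested. For the genes of these lists values within batches are not given. Their means ± SD pool the batches, which the groups do not share evenly, whereas the fold changes are from fits with the batch term. Among 17 other integrin chains, 5 were tested in HSC-1-like cells and 3 changed with age, where 7.27% of all genes did. Itga3, a laminin receptor chain, rose by 1.43 (SE 0.26), from 12.9 ± 19.0 to 63.4 ± 56.1 CPM (SD, n = 3). Itgb3, the partner of Itgav and of the platelet chain Itga2b, rose by 1.42 (SE 0.30), from 13.8 ± 10.9 to 36.6 ± 6.11 CPM. Itgb5, another partner of Itgav, fell by 2.70 on the log2 scale (SE 0.72), from 5.46 ± 2.75 to 0.915 ± 0.631 CPM. All 3 were also called for CASIN against young, Itgb3 with 2.17 and 59.0 ± 10.3 CPM in CASIN libraries. In all LSK cells Itgb5 fell by 1.87, from 11.5 ± 3.74 to 2.65 ± 0.669 CPM, and Itga3 rose by 0.95. In aged HSC-1-like libraries 3 UMIs stand for 0.669 to 1.07 CPM, so the aged level of Itgb5 there rests on few molecules. The filter on low counts can take in Itgb5 there through the young libraries, where it is higher, so its fall is no support for a change of the list.

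Of 14 integrin activators 12 were tested in HSC-1-like cells and 2 rose with age, where 7.27% of all genes passed: Fyb by 0.79 (43.3 ± 1.27 to 67.9 ± 13.8 CPM) and Skap1 by 2.14 (1.26 ± 0.724 to 4.41 ± 3.53 CPM), both adaptors that link receptors to the GTPase Rap1. Talin, kindlin-3 and Rap1 itself (Tln1, Fermt3, Rap1a, Rap1b) did not pass, and the median over the list was 0.07, beside 0.01 for all genes. Fermt2, a second kindlin, was called for CASIN against young (1.45). None of 6 inhibitors tested passed with age in these cells, and for CASIN against young Dok1 was called there (0.75) and Rap1gap2 over all LSK cells (2.57). Of 21 proteins of the adhesion complex 17 were tested and 2 rose, near the 7.27% of all genes: Vcl (vinculin) by 0.83 (SE 0.16) and Actn4 by 0.46 (SE 0.11). Lims1 of this list had a log2 fold change of -0.42 with age over all LSK cells (SE 0.10, adjusted p = 0.04422 in edgeR). Its means with the batches pooled were 88.3 ± 42.4 CPM in young and 83.5 ± 31.9 in aged libraries. For CASIN against young Ptk2 (focal adhesion kinase) and Ptk2b were called in HSC-1-like cells (0.76 and 0.66). Of 16 niche ligands 10 were tested and 2 rose, again beside 7.27% of all genes: Icam2 by 0.70 (22.1 ± 6.87 to 31.1 ± 6.28 CPM) and Lama4, a laminin chain, by 2.47 from 0.419 ± 0.419 to 3.03 ± 1.67 CPM. Lama5 was called over all LSK cells, at 2.32 (0.4997 ± 0.352 to 2.39 ± 0.891 CPM). In young HSC-1-like libraries 3 UMIs stand for 1.26 to 1.27 CPM, so the changes of Lama4 and Skap1 rest on few molecules. Rap1gap2 was at 0.172 CPM in young libraries over all LSK cells, where 3 UMIs stand for 0.0854 to 0.169 CPM. The filter on low counts can take in Lama4, Skap1 and Rap1gap2 through the groups where they are higher. Their rises are therefore no support for a change of their lists, and the counts above include Lama4 and Skap1.

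Of 20 genes of Cxcr4 signalling 19 were tested in HSC-1-like cells and 2 fell with age, near the 7.27% of all genes that passed, both of the RGS family that shortens G protein signals: Rgs1 by 1.08 on the log2 scale (SE 0.15, adjusted p = 0.0002423 in edgeR), from 405.5 ± 137 to 244 ± 120 CPM, and Rgs19 by 0.84 (SE 0.16), from 51.7 ± 11.5 to 24.45 ± 8.10 CPM. The median of the list was -0.08. For CASIN against young 5 fell (Rgs1, Rgs2, Rgs10, Rgs19 and Dpp4), where 11.3% of all genes passed. The 1 gene of this list called over all LSK cells was Cd74, a receptor of the cytokine MIF that also chaperones MHC class II, which rose with age by 1.33 (SE 0.26, adjusted p = 0.02822 in edgeR), from 78.1 ± 11.4 to 228 ± 90.8 CPM, and was 1.25 higher in CASIN than in young libraries (adjusted p = 0.02553). Of 25 other niche adhesion molecules 22 were tested in HSC-1-like cells and 7 changed with age, 4 of them higher, where 7.27% of all genes passed. The largest changes among those called were Selp (P-selectin) at 3.098, Jam2 at 1.99, Alcam at 1.64 and Cd34 at -1.49 in HSC-1-like cells, and Ncam1 at 2.90 over all LSK cells. Selp was at 16.7 ± 2.31 CPM in young, 154 ± 35.9 in aged and 144 ± 53.4 in CASIN libraries.

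The handling genes moved with the same contrast and their part in the results was not tested. In HSC-1-like cells 12 of 20 were higher with age and 1 was lower, where 563 of 11228 genes were higher and 253 lower (7.27% in all), with a median of 0.97, and Nr4a2 was higher by 2.08. Their summed level there was 3111 to 10960 CPM in young, 4555 to 15700 in aged and 4078 to 16520 in CASIN libraries. It lay at 9751 to 16520 CPM in the batch 1 libraries and at 3111 to 6977 in those of batch 2, which do not overlap. For CASIN against aged 0 of 20 passed in HSC-1-like cells, with a median of -0.27 and 2 of 20 above 0. Over all LSK cells 0 of 20 passed as well, with a median of -0.70, beside -0.01 for all genes, and 1 of 20 was above 0. Markers of lymphocytes, red cells and neutrophils were low in HSC-1-like sums: 5 lymphocyte genes together stayed at 0.292 to 1.75 CPM, with Cd3e at 0 throughout, 5 red cell genes at 1.46 to 9.71 and 5 neutrophil genes at 1.11 to 29.5. A list of 6 stromal and endothelial genes, among which are Cxcl12 and the collagen genes, was at 3.77 to 135 CPM in young, 12.4 to 16.3 in aged and 15.5 to 59.7 in CASIN libraries. The 135 CPM was in young library 3, the only young library of batch 2. Summed over all LSK cells, 5 neutrophil genes were at 4.84 to 89.0 CPM in young, 28.3 to 420.3 in aged and 3.02 to 56.5 in CASIN libraries, and at 3.02 to 28.3 in batch 1 against 28.9 to 420.3 in batch 2, so that the batches do not overlap and young and aged libraries do. The other lists over all LSK cells reached at most 23.0 CPM for lymphocyte, 6.32 for red cell, 28.4 for stromal and endothelial and 26.0 for platelet genes. The part of these markers in the results over all LSK cells and in HSC-1-like cells was not tested.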

How the data were processed

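LSK cells of 9 libraries were read from the deposited UMI counts per gene and barcode, which the authors made with Cell Ranger 3.1.0 on mm10 (per the submitters' processing notes and the methods) and which are raw counts. Feature barcodes were not used here. Kept were cells with 1000 to 40000 UMIs, at most 6000 genes, at most 10% mitochondrial UMIs and a log gene number within 0.4 of its regression on log UMIs, 15856 of 32387 barcodes, with a median of 9532 to 14622 UMIs per cell. Scrublet (scanpy 1.11.5) marked 0.423% of cells, too few for a caller that works, so doublets were not removed. Cells were normalised, integrated over libraries and clustered with Seurat 5.3.0 and sctransform 0.4.2 (resolution 0.4) without the adhesion genes, and clusters were named from marker lists. Counts were summed per library and subset, of which 11 of 15 had at least 20 cells in each library, and tested with edgeR 4.0.16 (TMM, filterByExpr, quasi-likelihood, group and batch as terms, 9 libraries, Benjamini-Hochberg adjusted p below 0.05, over all genes). The SE of an edgeR value is its absolute log2 fold change divided by the square root of the F statistic of its test. The difference between subsets was tested with limma 3.58.1 on log2 CPM with a prior count of 2. DESeq2 1.42.0 was an alternative. R was 4.3.3, and numpy 2.4.6 and scipy 1.17.1 were used. The scripts were tested on simulated data. Intervals are not given for summed levels, whose error is the spread between libraries.

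The 10 genes and all lists were chosen with earlier results of these data known. Named genes are the 10, up to 5 per other list with the largest called changes over all LSK or HSC-1-like cells, and the 3 genes likest to each of the 10 over the subsets; some single genes under these rules are not reported here. Groups and batches come from the labels. Alternatives were DESeq2, its size factors, no filter, no batch term, a replicate block, only 2 groups, leaving out each library, 5% mitochondrial UMIs, without marked doublets, cells thinned to 4000 UMIs, and adhesion genes kept for clustering. Leaving out cells of shared barcodes and a term for the difference between batches were added after seeing the data.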

Additional observations from a re-analysis of the deposited data

Results flagged for a closer look

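Itga6, the laminin receptor chain, changed by different amounts in 2 subsets between CASIN and young libraries: the log2 fold change was larger by 0.94 in HSC-1-like than in LMPP-like cells (SE 0.16, adjusted p = 0.001411 in limma).

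Aged against young differed between the sequencing batches for 2 of the 10 genes over all LSK cells, by a term for that difference in edgeR that was added after seeing the data and that 3.09% of 13642 genes passed. For Itga6 the log2 fold change differed by -1.65, batch 2 minus batch 1 (SE 0.19, adjusted p = 0.00856), with levels of 26.1 and 26.6 CPM in young and 85.0 in aged libraries of batch 1 and of 113 in young and 103 and 127 in aged libraries of batch 2. For Itgb7 it was higher in batch 2 by 1.06 (SE 0.19, adjusted p = 0.02747), with 23.55 and 22.9 CPM in young and 14.65 in aged libraries of batch 1 and 19.4 in young and 25.9 and 24.6 in aged libraries of batch 2. Batch 1 holds 1 aged library and batch 2 holds 1 young library.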

How the results depend on the processing

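Of the 10 genes, aged against young called 0 over all LSK cells, with 2 under DESeq2, 1 with the replicate block and 0 to 1 when each library was left out (Itga6 without young replicate 3, Itga5 without aged replicate 2, Cxcr4 without aged replicate 3 at -1.38). In HSC-1-like cells it called 2, with 1 under DESeq2, 1 with no filter, 0 with no batch term and 0 to 3 when each library was left out (0 without aged replicate 1, 1 without young replicate 1 or 3 or CASIN replicate 1, 3 without aged replicate 3). CASIN against young called 1 over all LSK cells, with 2 under DESeq2, 0 with no batch term, 2 with only the 2 groups compared, 0 at 5% mitochondrial UMIs, 2 in thinned cells and 0 to 2 when each library was left out (0 without young replicate 1 or 2 or CASIN replicate 1 or 3, 2 without young replicate 3 or aged replicate 1 or 2). In HSC-1-like cells it called 2, with 0 without the batch term, 4 with adhesion genes kept for clustering and 1 to 2 when each library was left out (1 without young replicate 3 or CASIN replicate 3). CASIN against aged called 0 in both, and 0 to 0 when each library was left out. Pairs of gene and subset called with age were 6, with 3 under DESeq2, 12 with no filter, 0 with no batch term, 3 with adhesion genes kept and 3 to 10 when each library was left out (3 without young replicate 1 or aged replicate 1, 10 without aged replicate 3). With adhesion genes kept, no cluster was led by Fos and Jun, and Pf4 and Pclaf led the same cluster. That count therefore need not cover the same subsets. For CASIN against aged they were 0, with 1 with no filter and 0 to 0 when each library was left out. For CASIN against young they were 5, with 12 with no filter, 0 with no batch term, 10 with only the 2 groups and 3 to 9 when each library was left out (3 without young replicate 1 or 2, 9 without aged replicate 1). The difference between HSC-1-like and LMPP-like cells was called for 0 genes with age, 0 to 1 when each library was left out (Itga6 without young replicate 1 or aged replicate 3, Cxcr4 without young replicate 3), and for 1 gene for CASIN against young, 0 with no batch term and 1 to 1 when each library was left out. Of all genes, DESeq2 called 1135 with age over all LSK cells, where edgeR called 560. In HSC-1-like cells DESeq2 called 558 with age and edgeR 816. For CASIN against young over all LSK cells DESeq2 called 1269 and edgeR 582. The shares of all genes called in the other alternatives are not given here, so their counts have no share beside them. The cause of the changes between alternatives was not tested.

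Same-numbered libraries had correlations of -0.479 to 0.268 once group and batch were removed. With 3 libraries a group, and replicate 3 in batch 2 in every group, these values cannot show whether the numbers pair the libraries. With the replicate block, aged against young called 1 gene over all LSK cells and 2 in HSC-1-like cells, and Cxcr4 in HSC-1-like cells was -0.77 (adjusted p = 0.2143 in edgeR). The fold change of Cxcr4 there was called in 10 of 20 alternatives (-1.80 to -0.02) and that of Itga6 in 18 of 20 (0.58 to 1.20), each with its sign kept. Of 99 alternative values of called results 0 changed sign, and of 1002 of results not called 118 did. Itga9, Itgb2 and Itgal are limited by their few UMIs.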
